A study of Mus musculus with 48 samples.

Results

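Mitochondrial complex I is built mainly from proteins whose genes carry the name Nduf, and the arrays held 42 such genes among the 22180 genes with a single symbol. Every gene whose only symbol on a probe set begins with Nduf was taken, with the probe set of highest mean signal standing for the gene. They divide by name into 34 subunits (Ndufa, Ndufb, Ndufc, Ndufs and Ndufv) and 8 assembly factors (Ndufaf), and all 42 were among the 15242 genes tested. A further 6 probe sets that name a Nduf gene together with another gene were not used, and the 7 Nduf symbols found on them alone are not analysed here.

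The arrays measured total RNA of whole tissue from the junction of oesophagus and stomach (the cardia) in mice, in 48 samples that form 16 groups of 3. The study follows Barrett oesophagus, in which gland-forming lining replaces the squamous lining of the lower oesophagus, in a mouse that carries an interleukin-1 beta transgene (pL2). Wild-type (WT) mice and pL2 mice were kept on chow at 2 facilities, MRI and Freising, and on a high fat diet (HFD) at Freising, all to 12 months of age. At MRI, on chow, were also a line labelled FXR (the bile acid receptor) and its cross pL2_FXR, both at 12 months, and the line pL2_IL8 at 9 and 12 months. Another 6 MRI lines on chow carried pL2 with an Lgr5 or a Dclk driver and 1 of 3 Notch changes (Notch1fl_fl, Notch2fl_fl or Notch2IC_LacZ). These 6 lines were given tamoxifen at 3 to 6 months and taken at 9 to 13 months of age, and no tamoxifen age is given for the other groups. Lgr5 marks stem cells and Dclk1 marks tuft cells of the gut, so in the Notch lines the gene change starts in the cells that the driver reaches, whereas the RNA came from the whole tissue. The labels do not state what was done to FXR in the FXR line.

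Complex I is the first and largest enzyme of the respiratory chain: it oxidises NADH, passes the electrons to ubiquinone and pumps protons across the inner mitochondrial membrane. Its matrix arm holds the core subunits that carry the flavin and the iron-sulphur clusters. Accessory subunits surround and stabilise both arms, and assembly factors help to build the complex without remaining in it. The core subunits of the membrane arm are encoded by mitochondrial DNA and are not analysed here. In the stomach, the acid-secreting parietal cells are known for their density of mitochondria, so mitochondrial transcripts of whole gastric tissue also depend on how many parietal cells a sample holds.

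Values are deposited log2 signals, on which a difference of 1 is a doubling, and errors of differences are standard errors from 1 limma fit over all 48 arrays. A gene was called when its p-value, adjusted over all tested genes of a comparison, was below 0.05. Array medians lay between 4.03 and 4.27. Squamous keratin Krt13 (9.19 to 12.08), gastric pit mucin Muc5ac (10.51 to 12.82) and the proton pump subunit Atp4a of parietal cells (10.78 to 12.99) were above the array median on all 48 arrays, so the tissue held both linings. Il1b, the transgene's product, lay between 5.48 and 8.88 on the pL2 chow arrays and between 3.71 and 6.26 on the WT chow arrays, so 1 WT array reached into the pL2 range. The mean of 9 hepatocyte or 9 intestinal markers was above 8 on 10 arrays, which span 9 groups. Nothing in the labels states that the arrays of a group came from separate mice, so p-values measure the spread between these samples.

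The first question was whether complex I genes varied between the groups at all. In a moderated F test over the 16 group means, 26 of 34 subunits (76.5%) and 4 of 8 assembly factors (50%) were called, against 52.3% of all tested genes. All 6 core subunits of the matrix arm among these genes were called, as were 5 of its 8 accessory subunits, 13 of 17 accessory subunits of the membrane arm and Ndufab1, the acyl carrier protein present in both arms. The span between a gene's lowest and highest group mean had a median of 0.75 over the subunits and 0.62 over the assembly factors, beside 0.85 over all tested genes.

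The subunit score of an array, the mean over the 34 subunits of the log2 value minus the gene's mean over the 48 arrays, was highest in WT mice at MRI (0.25, 0.27 and 0.38) and in the FXR line (0.18, 0.34 and 0.32). It was lowest in pL2_Lgr5_Notch2IC_LacZ (-0.24, -0.06 and -0.31). The group means of 24 of the 34 subunits were highest in 1 of those top groups. Of the 34, 15 were lowest in 1 of the 3 Lgr5 lines and 10 in pL2 mice at Freising, on chow or HFD. The same genes make up the score, and the shares over all tested genes were not counted. Among the 36 arrays with pL2, the highest score was 0.15, and none reached the median of the 12 arrays without pL2. Overlap remained, since the lowest array without pL2, in WT mice on HFD, was at -0.09.

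**Figure D1:**
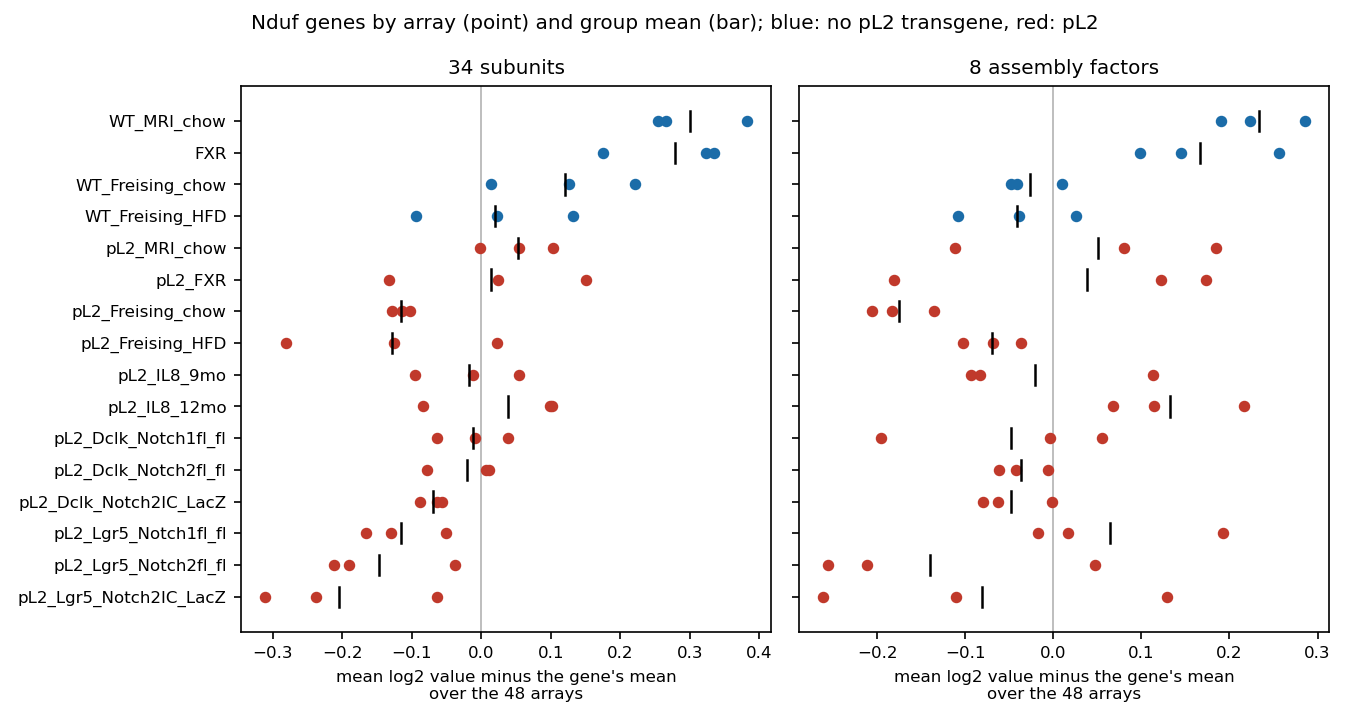
Mean log2 value of the 34 complex I subunits (left) and the 8 assembly factors (right), each gene centred on its mean over the 48 arrays, with 1 point per array and a bar at the mean of the 3 arrays of a group. WT mice at MRI and the FXR line lie highest for the subunits, with group means of 0.30 and 0.28, and pL2_Lgr5_Notch2IC_LacZ lies lowest at -0.20.

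The smallest F-test p-values belonged to Ndufs1 (adjusted p = 7.15e-06), Ndufa11 (adjusted p = 2.09e-05) and Ndufv1 (adjusted p = 2.82e-05). Ndufs1, the largest core subunit, which carries iron-sulphur clusters, spanned 7.76 to 8.95 in group means. Ndufa11, an accessory subunit at the junction of the arms, spanned 8.44 to 9.94. Ndufv1, the core subunit that binds flavin and NADH, spanned 9.65 to 10.40. All 3 were highest in WT mice at MRI or in the FXR line. Ndufs5, an accessory subunit of the membrane arm, was above the array median on only 16 of 48 arrays and did not pass (adjusted p = 0.453). Its group means ran the other way, lowest in WT mice at MRI and highest in pL2_Lgr5_Notch2fl_fl.

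**Figure D2:**
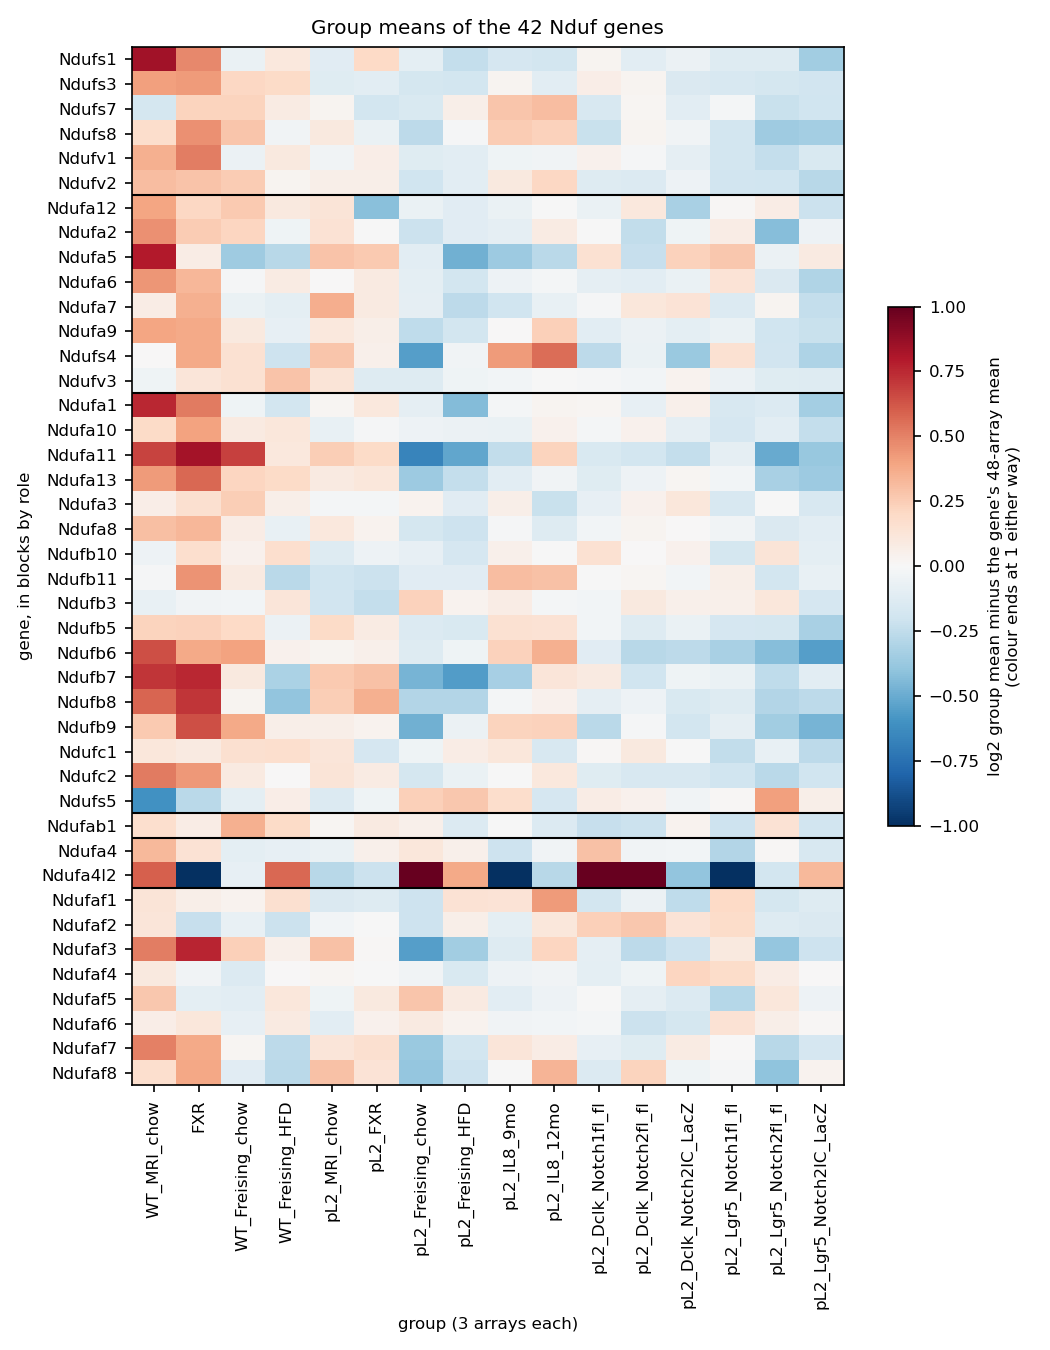
Group means of the 42 genes (rows, in blocks by role) in the 16 groups (columns), as log2 value minus the gene's mean over the 48 arrays, with the colour ending at 1 either way. Most subunits are red in the first columns, WT at MRI and FXR, and blue in the Lgr5 lines on the right, whereas Ndufa4l2, which spans 2.81, and Ndufs5 follow neither.

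The comparison of pL2 with WT mice on chow asked what the interleukin-1 beta transgene did to these genes, as the mean of the differences within the facilities (6 pL2 and 6 WT arrays). Complex I subunits were lower in pL2: 12 of 34 fell, 0 rose, and 30 had a negative sign. Of all tested genes, 12.9% were called lower, 9.05% were called higher and 51.1% had a negative sign. The median difference was -0.23 over the subunits, -0.11 over the assembly factors and -0.01 over all tested genes. Neutrophil markers moved the other way, with 5 of 7 higher. Lower as well were 10 of 10 smooth muscle, 7 of 13 skeletal muscle, 7 of 7 fibroblast, 5 of 6 endothelial, 6 of 7 macrophage and 3 of 9 parietal markers. In whole tissue, fewer cells of a type and less RNA per cell cannot be told apart. With the mean of the skeletal muscle markers as a covariate 13 subunits were called, and the part of the other lists was not tested, except for the parietal markers, given further on.

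Among the core subunits of the matrix arm, 4 of 6 fell. Ndufs3 was 6.95, 6.998 and 7.14 in the WT arrays of MRI and 6.85, 6.95 and 6.68 in those of Freising. In pL2 mice it was 6.58, 6.61 and 6.31 at MRI and 6.41, 6.55 and 6.38 at Freising, so every pL2 array was below every WT array. The difference was -0.45 ± 0.09 (limma, adjusted p = 0.00054). Ndufs1 differed by -0.49 ± 0.10 (adjusted p = 0.000838), Ndufv2, which holds an iron-sulphur cluster next to the flavin site, by -0.35 ± 0.08 (adjusted p = 0.00257), and Ndufv1 by -0.23 ± 0.07 (adjusted p = 0.0210). In these 3 genes the pL2 and WT arrays overlapped when facilities were pooled. Ndufs8, another iron-sulphur subunit, was at -0.31 ± 0.12 and missed the threshold (adjusted p = 0.0702). Ndufs7, which holds the last cluster before ubiquinone, was at -0.08 ± 0.11.

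Of the 17 accessory subunits of the membrane arm, 7 fell. Ndufa11 was 10.05, 9.54 and 9.74 in WT mice at MRI against 9.27, 9.59 and 9.20 in pL2 mice. At Freising it was 9.68, 9.94 and 9.75 against 8.45, 8.39 and 8.48. Its difference of -0.88 ± 0.17 (adjusted p = 0.000307), a 1.85-fold decrease, was the largest of the set. Only 1 pL2 array, at MRI, lay above the lowest WT array. A second probe set named for Ndufa11, with a mean signal of 4.73, differed by 0.03 and correlated with the one used at r = 0.31 over the 48 arrays, so the fall rests on 1 of 2 probe sets.

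Ndufb6 was 8.89, 8.65 and 8.94 in WT and 8.08, 8.18 and 8.37 in pL2 mice at MRI, and 8.56, 8.77 and 8.43 against 7.91, 8.09 and 8.17 at Freising. Its difference was -0.57 ± 0.13 (adjusted p = 0.00175). Ndufa13, also named GRIM-19 for a role in cell death, differed by -0.46 ± 0.10 (adjusted p = 0.00176). In both genes no pL2 array reached a WT array. Ndufb9 (-0.53 ± 0.13), Ndufb7 (-0.51 ± 0.14), Ndufc2 (-0.33 ± 0.09) and Ndufa10 (-0.21 ± 0.07) were the other called genes of this arm, and in each of them all 6 pL2 arrays lay below the WT mean.

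Among the 8 accessory subunits of the matrix arm, 1 was called: Ndufa9, which sits near the ubiquinone site, at -0.32 ± 0.11 (adjusted p = 0.0381). Ndufs4, whose loss in mice causes a Leigh-like encephalopathy, differed by -0.21 ± 0.15 (adjusted p = 0.321). The sign was positive in 4 subunits, none of them called: Ndufs5 (0.40 ± 0.23), Ndufa4l2 (0.19 ± 0.40), Ndufa7 (0.13 ± 0.15) and Ndufb3 (0.07 ± 0.14).

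**Figure D3:**
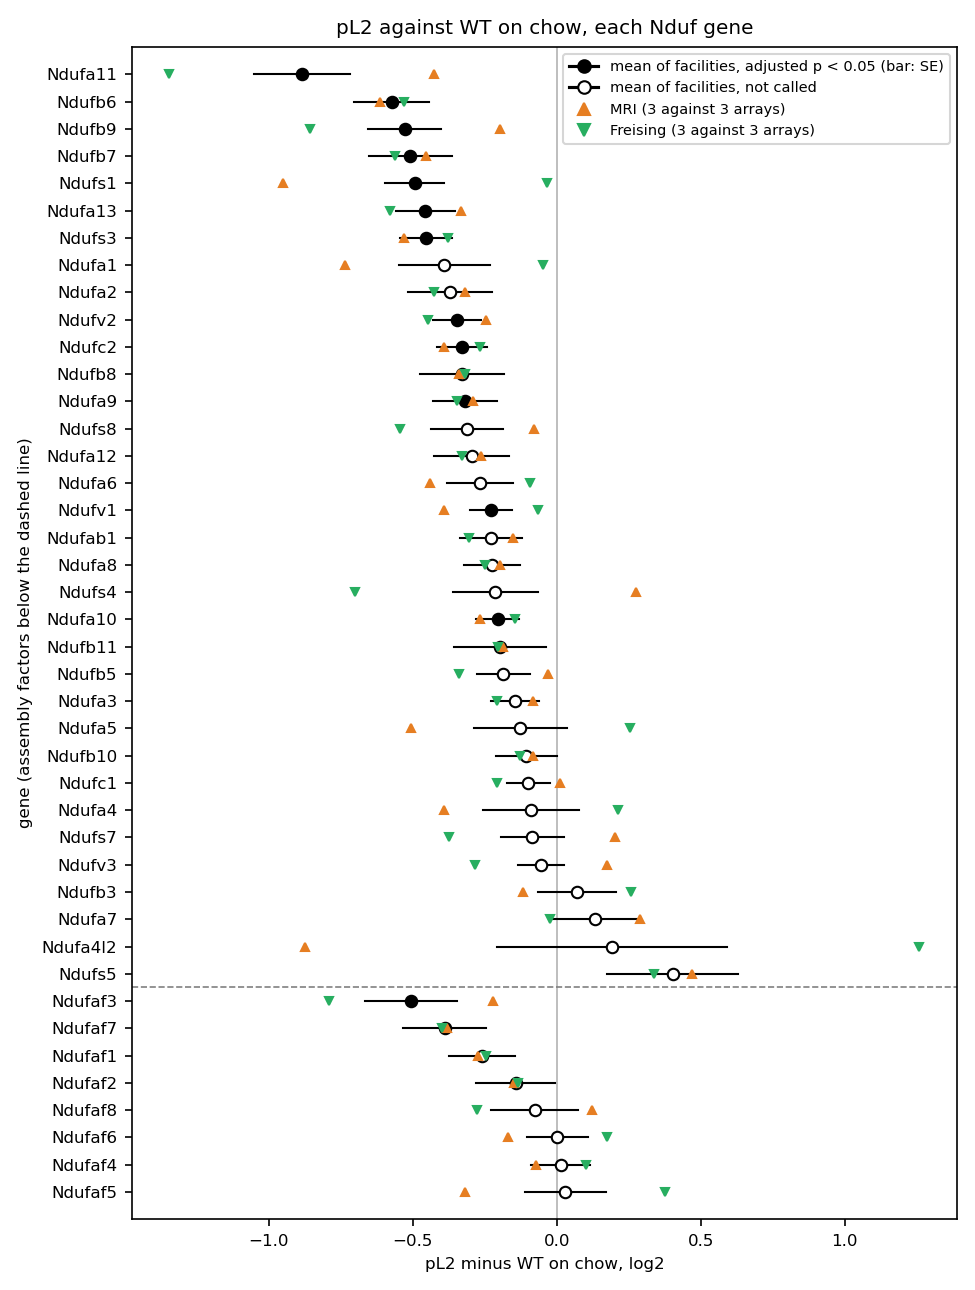
Difference of pL2 from WT mice on chow for each of the 42 genes (log2 scale; filled circles are called at adjusted p below 0.05, open circles are not, bars are standard errors, triangles are the facilities alone). Filled circles all lie left of 0, from -0.88 for Ndufa11 to -0.21 for Ndufa10, while Ndufs1 has its MRI triangle at -0.95 and its Freising triangle at -0.03.

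The facilities were also compared apart. The median over the subunits was -0.26 at MRI and -0.28 at Freising, and 24 of 34 subunits (70.6%) were lower in pL2 at both, beside 32.4% of all tested genes. At MRI, 7 subunits fell (of all tested genes 12.8% were lower and 10.3% higher): Ndufs1, Ndufs3, Ndufv1, Ndufb6, Ndufa1, Ndufc2 and Ndufa6. At Freising, 4 fell (0.912% lower and 0.728% higher of all tested genes): Ndufa11, Ndufb9, Ndufa13 and Ndufv2. Of the 12 subunits called in the mean, 5 were called at MRI, 4 at Freising and 3 at neither.

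Ndufs1 was 8.89, 8.93 and 9.03 in WT mice at MRI and 7.91, 8.01 and 8.08 in pL2 mice there, with no overlap. At Freising it was 8.13, 8.09 and 7.92 in WT and 7.91, 8.13 and 7.99 in pL2 mice, which overlap. Its difference was -0.95 ± 0.14 at MRI (adjusted p = 3.53e-05) and -0.03 ± 0.14 at Freising. The difference between the facilities was itself tested and was 0.91 ± 0.20 (adjusted p = 0.0240), the only member called in that test (of all tested genes 0.892% were called higher and 0.866% lower). That call was lost when only the arrays compared were fitted (adjusted p = 0.0605), with the skeletal muscle markers as a covariate (adjusted p = 0.0890) and with the suffix of the sample titles as one (adjusted p = 0.0554). On chow at Freising, 3 of 3 pL2 and 0 of 3 WT titles carry that suffix, so within Freising the suffix and the transgene cannot be told apart. It was also lost without replicate 3 of WT at MRI, without replicate 2 or 3 of pL2 at MRI and without replicate 2 or 3 of WT at Freising (adjusted p between 0.0532 and 0.0633). The mean of the skeletal muscle markers moved with it: it was 5.90 to 6.86 in WT mice at MRI, 3.84 to 5.36 in pL2 mice at MRI and 3.58 to 4.10 in both genotypes on chow at Freising. Most endothelial and fibroblast markers also fell further at MRI than at Freising. Endothelial Tie1 differed by -1.77 at MRI and -0.03 at Freising, and fibroblast Col1a1 by -1.77 and -0.25, whereas fibroblast Dcn was at -1.18 and -1.25. The part of these 2 lists was not tested.

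Ndufv1 at MRI was 10.24, 10.27 and 10.22 in WT and 9.90, 9.87 and 9.79 in pL2 mice, without overlap, a difference of -0.39 ± 0.10 (adjusted p = 0.00533). Without the 10 arrays of high hepatocyte or intestinal means, which was tried after the data were seen, it was -0.36 (adjusted p = 0.0546). At Freising Ndufv1 differed by only -0.07 ± 0.10 (limma, adjusted p = 0.801), and the groups overlapped. Ndufb9, an accessory subunit of the membrane arm, was 9.91, 10.09 and 9.99 in WT and 9.05, 9.18 and 9.19 in pL2 mice at Freising. Its difference there was -0.86 ± 0.18 (adjusted p = 0.00621), a 1.81-fold decrease. Ndufa13 at Freising was 9.81, 9.87 and 9.82 in WT and 9.26, 9.36 and 9.14 in pL2 mice, a difference of -0.58 ± 0.15 (adjusted p = 0.0297). In both genes the groups did not overlap. Ndufa11 differed at Freising by -1.34 ± 0.24 (adjusted p = 0.000975), a 2.54-fold decrease.

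The counts within a facility depended on single arrays. The MRI count of 7 became 4 without replicate 1 and 3 without replicate 3 of WT, 3 without replicate 1 and 4 without replicate 2 of pL2, and 4 without the 10 arrays named above. The Freising count of 4 became 2 without replicate 1 or 3 of pL2 or replicate 1 of WT, and 1 without replicate 2 of WT. The count of 12 in the mean of facilities lay between 9 and 13 when any of the 12 arrays was left out.

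**Figure D4:**
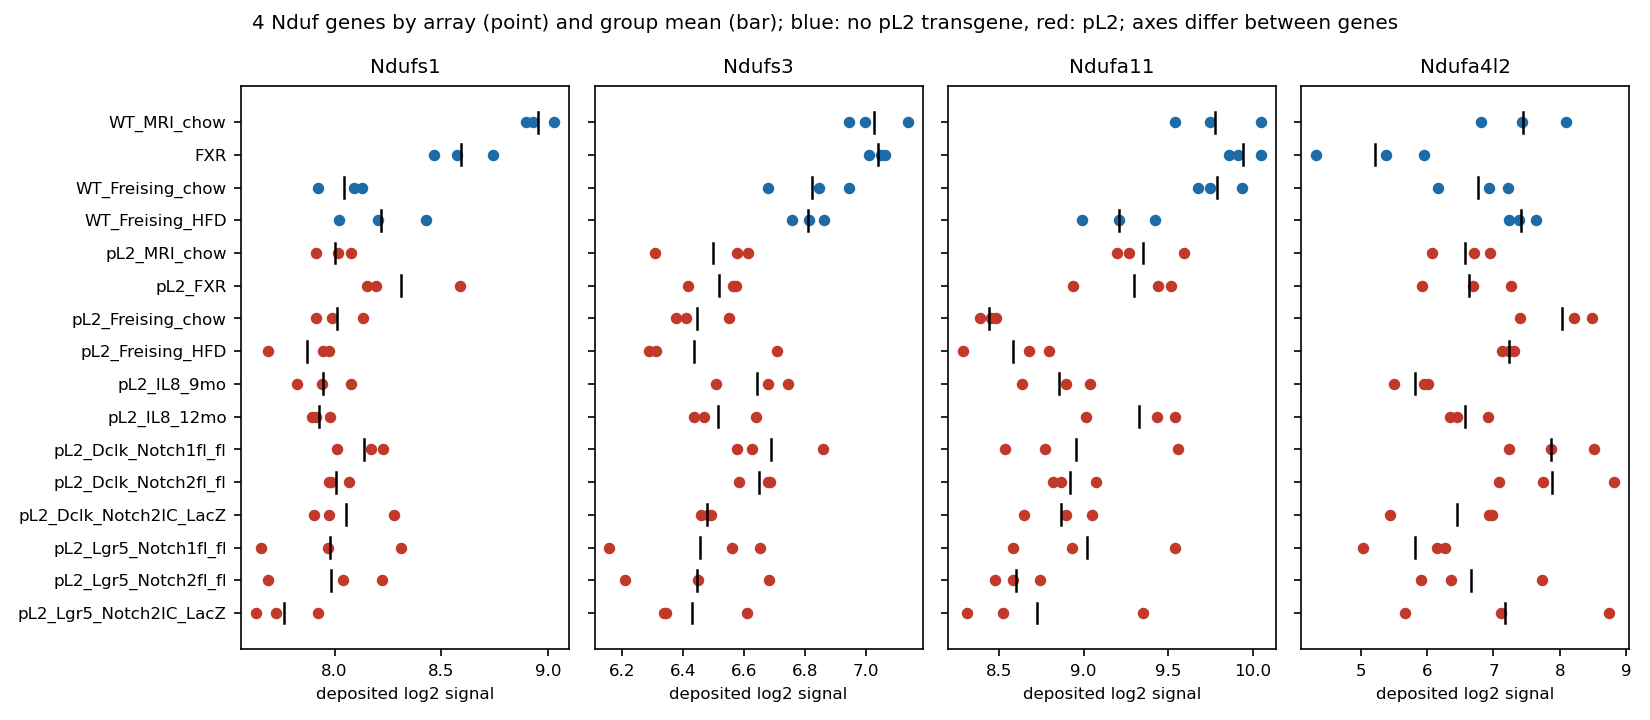
Deposited log2 signals of Ndufs1, Ndufs3, Ndufa11 and Ndufa4l2 on each array (points) with the mean of each group of 3 (bars), on an axis of its own for each gene. Ndufs1 stands apart in WT mice at MRI (8.89 to 9.03) and in FXR (8.47 to 8.74), Ndufa11 is low in pL2 mice at Freising (8.39 to 8.48), and Ndufa4l2 is lowest in FXR (4.33 to 5.95).

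On a high fat diet, the contrast of pL2 with WT at Freising had the same sign. The median was -0.15 over the subunits with 28 of 34 negative, beside -0.01 and 50.8% over all tested genes. The fit called 0 members (background, the share of all tested genes called, 1.16%). At unadjusted p below 0.05 were 7 of 34 subunits and 2265 of the 15242 tested genes. Ndufs3 had the smallest p, at 6.71, 6.29 and 6.31 on the pL2 arrays and 6.81, 6.86 and 6.76 on those of WT, without overlap, a difference of -0.38 ± 0.13 (adjusted p = 0.132). Without replicate 1 of pL2 on HFD, 2 subunits were called, and the share of all tested genes called without it is not given here. Replicate 2 of that group stood apart in the mean of the parietal markers, at 7.84 beside 9.75 and 9.47, and had the group's lowest subunit score (-0.28 beside 0.02 and -0.13).

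The diet itself was compared within each genotype, against chow at the same facility. In pL2 mice 0 members were called (background 0%; 2 subunits and 872 of all tested genes at unadjusted p below 0.05). The median over the subunits was -0.0044, and Ndufs4 had the smallest p at 0.51 ± 0.21 (adjusted p = 0.788). In WT mice 0 were called (background 0.164%; 3 subunits and 660 of all tested genes at unadjusted p below 0.05). The median was -0.14, and Ndufa11 differed by -0.58 ± 0.24 (adjusted p = 1.00). The difference between the genotypes in the diet effect also called 0 (background 0.0197%; 4 subunits and 885 of all tested genes at unadjusted p below 0.05). Ndufs4 was lowest in p (0.87 ± 0.29, adjusted p = 0.643).

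The FXR line asked about the bile acid receptor. Against WT mice at MRI, the median over the subunits was 0.03 and 14 of 34 were negative, beside 0.02 and 47.3% over all tested genes. The 1 called subunit (1.37% of all tested genes were lower and 0.748% higher) was Ndufa4l2, a relative of Ndufa4 that is induced by hypoxia, at 4.33, 5.39 and 5.95 in FXR and 6.81, 7.43 and 8.10 in WT mice. The groups did not overlap, and the difference of -2.23 ± 0.56 (adjusted p = 0.0303), a 4.68-fold decrease, was the largest of any member between 2 groups in the comparisons made. In this comparison 8 of 13 skeletal muscle and 6 of 9 squamous markers were lower. The call was lost with the skeletal muscle markers as a covariate (-1.42, adjusted p = 0.534) and with the parietal markers (adjusted p = 0.0528). It was also lost when only those arrays were fitted (adjusted p = 0.0824), and without replicate 2 or 3 of WT or replicate 1 or 2 of FXR (adjusted p = 0.0702, 0.161, 0.184 and 0.0891).

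Within the FXR line, the transgene was again accompanied by lower subunits: in pL2_FXR against FXR, 6 of 34 fell and 0 rose (5% of all tested genes fell and 5.15% rose). The median was -0.31 with 30 of 34 negative, beside -0.03 and 53.4% over all tested genes. Ndufv1 was 9.95, 9.82 and 10.09 in pL2_FXR and 10.36, 10.39 and 10.44 in FXR, a difference of -0.45 ± 0.10 (adjusted p = 0.00450). Ndufs3 was 6.57, 6.56 and 6.41 against 7.01, 7.05 and 7.06, a difference of -0.52 ± 0.13 (adjusted p = 0.00689). Ndufa10, an accessory subunit of the membrane arm, was 10.06, 9.97 and 10.21 against 10.42, 10.48 and 10.58, a difference of -0.41 ± 0.10 (adjusted p = 0.00970). In all 3 genes each pL2_FXR array was below each FXR array. Ndufb9 (-0.61 ± 0.18), Ndufa12 (-0.63 ± 0.19) and Ndufa13 (-0.46 ± 0.15) were called as well, also without overlap.

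Parietal markers moved with these genes: their mean was 9.20 to 9.78 in pL2_FXR and 10.38 to 10.52 in FXR, and 3 of 9 were lower. Squamous markers (5 of 9) and neutrophil markers (5 of 7) were higher, and their part in the result was not tested. With that mean as a covariate no subunit was called, and the mean difference over the subunits was -0.17 in place of -0.26. Fitting FXR and pL2_FXR without the other groups also called no subunit (1262 genes were called), and the count was 3 without replicate 2 of FXR and 1 without replicate 2 of pL2_FXR. Against pL2 mice at MRI, pL2_FXR showed 0 called members (background 0.0853%; 4 subunits and 1115 of all tested genes at unadjusted p below 0.05). The median was -0.01, with Ndufa12 lowest in p (-0.55 ± 0.19, adjusted p = 0.364). The test of whether the FXR effect depended on pL2 called 0 (background 0.138%; 6 subunits and 2139 of all tested genes at unadjusted p below 0.05). Ndufs1 was lowest in p there (0.67 ± 0.20, adjusted p = 0.133).

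The transgene contrasts in WT mice at MRI, WT mice at Freising on chow, the same on HFD and the FXR line share no arrays. At Freising, however, the suffix of the sample titles went with the transgene. On chow it is on 3 of 3 pL2 and 0 of 3 WT titles, and on HFD on 2 of 3 and 0 of 3. The title series of these groups also differs between the facilities, so facility and title series cannot be told apart. In all 4 of these contrasts, 20 of the 34 subunits had a negative difference, beside 22.1% of all tested genes. Ndufs3 was -0.53, -0.38, -0.38 and -0.52 in that order. Ndufa4l2 was -0.87, 1.26, -0.19 and 1.41 and so had no common sign.

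Interleukin-8, an attractant of human neutrophils, names the pL2_IL8 line. At 12 months it differed from pL2 at MRI in 0 members (background 1.82%; 4 of 34 subunits and 2588 of the 15242 tested genes at unadjusted p below 0.05). The median over the subunits was -0.02. Ndufaf1, an early assembly factor, had the smallest p, at 7.57, 7.68 and 7.50 in pL2_IL8 and 6.86, 6.98 and 7.22 in pL2 mice, without overlap. The difference was 0.57 ± 0.16 (adjusted p = 0.0611), and it was called with the suffix of the sample titles as a covariate (0.62, adjusted p = 0.0370). The sample titles of the IL8 line form a series apart from those of pL2 at MRI, so title series and genotype cannot be told apart here. Between 12 and 9 months of age 0 members were called (background 0%; 3 subunits and 1184 of all tested genes at unadjusted p below 0.05), and the median was 0.04. Ndufc1, a small subunit of the membrane arm, had the smallest p (-0.27 ± 0.11, adjusted p = 0.474).

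The 6 Notch lines were each compared with pL2 at MRI, which is therefore shared by all 6 comparisons, and their titles and tamoxifen treatment also set them apart from it. Age differed too: pL2 at MRI was taken at 12 months, the Lgr5 lines at 9 to 11 and the Dclk lines at 10 to 13. In the Lgr5 comparisons, line and age therefore cannot be told apart. No member was called in any of them. Those with the Lgr5 driver had medians over the subunits of -0.15 (Notch1fl_fl, background 0.144%), -0.25 (Notch2fl_fl, 0.0525%) and -0.28 (Notch2IC_LacZ, 0.138%). The medians over all tested genes were -0.08, -0.01 and -0.02 in that order, with 61.9%, 51.9% and 53.3% negative. At unadjusted p below 0.05 were 5, 13 and 14 of 34 subunits, beside 2209, 1385 and 1892 of the 15242 tested genes. Those with the Dclk driver had medians of -0.14 (Notch1fl_fl, background 0%), -0.09 (Notch2fl_fl, 0.256%) and -0.10 (Notch2IC_LacZ, 0.0197%). Over all tested genes the medians were -0.004, 0.006 and 0.01, with 50.6%, 49.2% and 47.8% negative. At unadjusted p below 0.05 were 2, 5 and 4 of 34 subunits, beside 1589, 1980 and 1016 of all tested genes.

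Ndufb5, an accessory subunit of the membrane arm, had the smallest p in pL2_Lgr5_Notch2IC_LacZ. It was 7.72, 8.18 and 7.63 there and 8.37, 8.50 and 8.23 in pL2 at MRI, without overlap, a difference of -0.52 ± 0.13 (adjusted p = 0.106). Replicate 2 of that line stood nearer to pL2 than its companions, and without it 9 subunits were called, Ndufb5 among them (-0.69, adjusted p = 0.00636). The share of all tested genes called without it is not given here, so the 9 calls stand without a background. Replicate 2 also had the highest mean of parietal markers in its group, 9.59 beside 8.28 and 8.02. Replicate 3, on which those 9 calls rest together with replicate 1, had an intestinal marker mean of 10.03, the highest of the arrays above 8, and the group's lowest subunit score (-0.31). The part of these markers in the result was not tested. Ndufc1 was lowest in p in pL2_Lgr5_Notch1fl_fl (-0.37 ± 0.11, adjusted p = 0.123) and was called without replicate 3 of that line (adjusted p = 0.0431). In pL2_Lgr5_Notch2fl_fl it was the assembly factor Ndufaf8 (-0.70 ± 0.21, adjusted p = 0.279). In the Dclk lines, Ndufs4 was lowest in p with Notch1fl_fl (-0.54 ± 0.21, adjusted p = 0.352) and with Notch2IC_LacZ (-0.65 ± 0.21, adjusted p = 0.472), and Ndufaf3 with Notch2fl_fl (-0.55 ± 0.22, adjusted p = 0.281).

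The 2 drivers were compared with each other within the Notch series. Driver went with age: tamoxifen was given at 3 to 5 months in the Lgr5 lines and at 5 to 6 in the Dclk lines, with tissue taken at 9 to 11 and at 10 to 13 months, so the driver and these ages cannot be told apart. The Dclk lines were higher than the Lgr5 lines in 29 of 34 subunits, with a median of 0.12 beside 0.04 over all tested genes, of which 38.5% were negative. No member was called (background 0.945%; 8 subunits and 2341 of all tested genes at unadjusted p below 0.05). Ndufc1 was closest, at 5.44 to 5.83 on the 9 Dclk arrays (median 5.74) and 5.32 to 5.68 on the 9 Lgr5 arrays (median 5.47), ranges that overlap. Its difference was 0.23 ± 0.06 (adjusted p = 0.0573), and it passed when any of 4 single arrays was left out (adjusted p between 0.0264 and 0.0391). Active Notch2 against floxed Notch2 within a driver, and floxed Notch1 against floxed Notch2 over both drivers, called 0 members each (backgrounds 0.0722%, 0.0328% and 0.0722%). At unadjusted p below 0.05 were 1, 2 and 2 subunits, beside 1084, 793 and 1271 of all tested genes. The smallest p-values there were those of Ndufab1 in the Lgr5 lines (-0.34, adjusted p = 0.691), Ndufa4l2 in the Dclk lines (-1.43 ± 0.56, adjusted p = 0.929) and Ndufa2 for Notch1 against Notch2 (0.37, adjusted p = 0.547).

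Ndufa4 and Ndufa4l2 carry subunit names and are counted with the subunits by name, although Ndufa4 is now assigned to complex IV. Ndufa4 did not pass the F test (adjusted p = 0.524), and its group means spanned 9.52 to 10.14. It was 10.23, 9.97 and 10.21 in WT and 10.08, 9.67 and 9.48 in pL2 mice at MRI, and 9.82, 9.70 and 9.62 in WT and 9.93, 9.82 and 10.03 in pL2 mice at Freising. The genotypes overlap at MRI and do not at Freising, where the pL2 arrays were the higher ones and the difference was not called. Ndufa4l2 passed it (adjusted p = 0.00184) and had the widest span of the set, from 5.22 in FXR to 8.03 in pL2 mice on chow at Freising. Its arrays there were 8.48, 7.39 and 8.21, and in WT mice at Freising 7.22, 6.16 and 6.93, without overlap, but the difference of 1.26 ± 0.56 was not called. Within-group spread was also wide, with 5.66, 7.11 and 8.75 in pL2_Lgr5_Notch2IC_LacZ.

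Of the 8 assembly factors, 4 varied between the groups. Besides Ndufaf3 (adjusted p = 0.000568) and Ndufaf7 (adjusted p = 0.0190), Ndufaf8 and Ndufaf1 passed the F test, while Ndufaf2, Ndufaf4, Ndufaf5 and Ndufaf6 did not. Ndufaf3, which acts early in building the matrix arm, was 8.63, 8.52 and 8.20 in WT and 7.76, 8.36 and 8.56 in pL2 mice at MRI, which overlap. At Freising it was 8.04, 8.26 and 8.23 in WT and 7.25, 7.41 and 7.50 in pL2 mice, which do not. The mean difference over the facilities was -0.51 ± 0.16 (adjusted p = 0.0199). Ndufaf7, a mitochondrial methyltransferase, was 6.96, 6.28 and 6.44 in WT and 5.78, 6.13 and 6.63 in pL2 mice at MRI, and 6.05, 6.13 and 6.06 against 5.51, 5.76 and 5.78 at Freising. It differed by -0.39 ± 0.14 (adjusted p = 0.0467).

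Those were the 2 assembly factors called in the mean of facilities, and none was called in a facility alone. The count fell to 1 or 0 when any of 10 of the 12 arrays was left out (0 without replicate 1 of WT or of pL2 at MRI), and to 0 with the parietal markers as a covariate. Ndufaf3 was also lower in pL2_FXR than in FXR (-0.75 ± 0.22, adjusted p = 0.0265), at 8.03, 7.57 and 8.23 against 8.69, 8.62 and 8.79. That call was lost without any 1 of the FXR arrays and without replicate 2 of pL2_FXR. Among 10 tested assembly factors of other names, such as Tmem70, Nubpl and Ecsit, 0 were called in the mean of facilities, and the median was -0.13.

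How far the members moved together was described by correlating each gene with the mean of the other subunits over the 48 arrays, which share groups and RNA preparation. The correlation was above 0.5 for 20 of 34 subunits (58.8%), for 2 of 8 assembly factors (25%) and for 11.9% of the other tested genes. Ndufc2 (r = 0.89), Ndufa10 (0.84), Ndufa9 (0.83), Ndufa13 (0.83) and Ndufv2 (0.83) were the most typical. Ndufaf3 (0.76) and Ndufaf7 (0.64) were the assembly factors above 0.5. Ndufs5 (-0.54), Ndufa4l2 (-0.29) and Ndufb3 (-0.09) ran against or apart from the rest. Within groups, after group means were removed, these correlations were mostly weaker. Ndufc2 was at 0.72, Ndufa10 at 0.73, Ndufa9 at 0.67, Ndufa13 at 0.55 and Ndufv2 at 0.60. Ndufaf3 was at 0.48 and Ndufaf7 at 0.34, and Ndufs5 was at -0.28, Ndufa4l2 at -0.09 and Ndufb3 at 0.13.

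Some genes of the other respiratory complexes and of the citric acid cycle were lower as well, beside 12.9% of all tested genes. In the mean of facilities, 2 of 4 genes of complex II were lower (Sdha, the flavoprotein of succinate dehydrogenase, by -0.55 ± 0.10, adjusted p = 0.000273; Sdhb by -0.36 ± 0.11), as were 2 of 8 of complex III, 3 of 9 of complex IV and 4 of 14 of complex V. Cox4i1 of complex IV differed by -0.52 ± 0.12 (adjusted p = 0.00175). The citric acid cycle had the largest share, with 8 of 12 lower and a median of -0.37. Idh3a, its NAD-linked isocitrate dehydrogenase subunit, differed by -0.53 ± 0.11 and Dld, the shared lipoamide dehydrogenase, by -0.44 ± 0.09. No gene of these 5 lists was called higher in this comparison.

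Of 11 regulators of mitochondrial biogenesis, limma called 0 in the mean of facilities, with a median difference of 0.06. Ppargc1a, the coactivator that drives mitochondrial biogenesis, was at -0.09 ± 0.33 and Nrf1 at 0.23 ± 0.09 (adjusted p = 0.0591). Of 14 genes of hypoxia and glycolysis, 4 were higher and 1 was lower. Hif1a, the hypoxia-inducible factor, rose by 1.06 ± 0.18 (adjusted p = 8.34e-05) and Hk2, a hexokinase, by 0.96 ± 0.16 (adjusted p = 0.000106), whereas Ldha was at 0.07 ± 0.12. Car9, a hypoxia-induced carbonic anhydrase that the stomach also expresses, differed by -0.82 ± 0.27.

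Across the 48 arrays, the subunit score correlated with the means of the citric acid cycle (r = 0.87), complex IV (0.86), complex III (0.85), complex II (0.82) and complex V (0.79). Its correlation with the assembly factors was 0.68 and with the regulators 0.65. After group means were removed, these were 0.61, 0.74, 0.79, 0.72, 0.57, 0.47 and 0.47 in the same order. Within the 18 arrays of the Notch lines the correlation with the citric acid cycle was 0.39 (rho = 0.33), beside 0.88 (rho = 0.84) in the 18 pL2 arrays with no Notch change. The 10 genes whose group means were most like the score over the 16 groups, apart from members, were Tmem106b (r = 0.96), Kcne2 (0.96), Gpt2, Nipa1, Zdhhc2, Pld6, Zadh2, Atp2c1, Dld and Idh2 (0.94). Kcne2 is the potassium channel subunit that parietal cells need to secrete acid, and Idh2 is the mitochondrial NADP-linked isocitrate dehydrogenase.

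The mean of the 9 parietal markers correlated with the subunit score at r = 0.74 (rho = 0.70) over the 48 arrays and at 0.77 without the 2 arrays farthest from its median. It was 0.58 (rho = 0.46) among the 36 arrays with pL2 and 0.63 (rho = 0.55) among the 12 without. Among the 18 pL2 arrays with no Notch change it was 0.55 (rho = 0.29), and it was 0.44 over all arrays after group means were removed. Over the 16 group means it was 0.87, and other marker lists also went with the score. Smooth muscle was at 0.78, adipocyte at 0.73, fibroblast at 0.71, proliferation at -0.72 and neutrophil at -0.66. The remaining cell marker lists lay between -0.52 and 0.54. After group means were removed, smooth muscle was at -0.28, adipocyte at -0.20, fibroblast at -0.33, proliferation at -0.28 and neutrophil at -0.21. The part of these lists was not tested. In the chow groups of both facilities the mean of the parietal markers was 9.89 to 10.28 in WT and 9.19 to 9.53 in pL2 mice. Kcne2 differed by -1.37 ± 0.32 (adjusted p = 0.00248), Aqp4, a water channel of these cells, by -1.37 ± 0.34 and Slc26a7 by -1.10 ± 0.30, whereas Atp4a was at -0.44 ± 0.20 (adjusted p = 0.118). With the marker mean as a covariate, 6 of the 12 subunit calls in the mean of facilities were left, of 2186 genes called in place of 3341. Ndufa11 was then at -0.81 (adjusted p = 0.00526), Ndufs1 at -0.45 (adjusted p = 0.00945) and Ndufs3 at -0.36 (adjusted p = 0.0124). The MRI count became 3, the Freising count 1 and the F-test count 16.

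**Figure D5:**
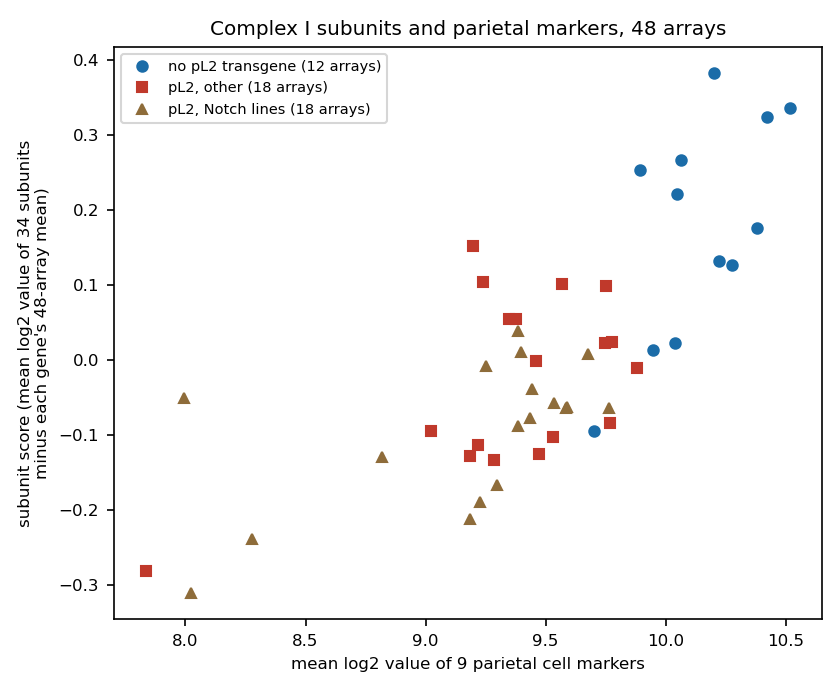
Subunit score of each of the 48 arrays against the mean log2 value of 9 parietal cell markers, for 12 arrays without pL2, 18 with pL2 and unchanged Notch genes, and 18 of the Notch lines. The score rises with the markers (r = 0.74), the arrays without pL2 lie at the upper right, and within the pL2 arrays the relation is looser (r = 0.58).

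The promoters of the genes were searched because many subunits moved together and the factors that bind promoters of respiratory genes are known. Promoter windows of 300 bases (250 before to 50 after the start of a transcript) were taken from RefSeq on GRCm38.p6, where 30 of 34 subunit genes (32 windows) and 7 of 8 assembly factors had an entry. Both strands were searched for 4 short motifs: that of nuclear respiratory factor 1 (the capitals of the Ndufa11 window, with any base in the sixth place), AAGATGGC of YY1, CCGGAAG of ETS factors such as GABP, and AAGGTCA of oestrogen-related receptors. No match of one motif overlapped another in the windows printed. The first was found in 18.8% of the subunit windows and 4.6% of all 32851 windows, the second in 18.8% and 2.75%, the third in 12.5% and 8.86%, and the fourth in 3.12% and 4.72%. A match is a description of letters and shows no binding.

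Matches were counted by the calls of the transgene comparison. Of the 10 subunits with a window that fell in the mean of facilities, 1 had the nuclear respiratory factor motif, 1 the YY1 motif, 3 the ETS motif and 0 the receptor motif. Of the other 20, the counts were 4, 5, 1 and 1. The windows of the most changed gene (Ndufa11), of the core subunit whose groups did not overlap (Ndufs3), of the called accessory subunit of the matrix arm (Ndufa9) and of the subunit that ran against the rest (Ndufs5) are shown, 5′ to 3′ on the strand of the gene, with motif matches in capitals. They lie at chr17:56717512-56717811 (Ndufa11, plus strand), chr2:90904672-90904971 (Ndufs3, minus strand), chr6:126849095-126849394 (Ndufa9, minus strand) and chr4:123718137-123718436 (Ndufs5, minus strand) of GRCm38.p6.
Ndufa11: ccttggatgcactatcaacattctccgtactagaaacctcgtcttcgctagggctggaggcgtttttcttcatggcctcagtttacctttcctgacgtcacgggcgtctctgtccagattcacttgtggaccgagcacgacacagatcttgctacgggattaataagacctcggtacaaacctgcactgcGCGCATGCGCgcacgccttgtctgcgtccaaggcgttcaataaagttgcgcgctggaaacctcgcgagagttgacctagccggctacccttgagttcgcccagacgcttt
Ndufs3: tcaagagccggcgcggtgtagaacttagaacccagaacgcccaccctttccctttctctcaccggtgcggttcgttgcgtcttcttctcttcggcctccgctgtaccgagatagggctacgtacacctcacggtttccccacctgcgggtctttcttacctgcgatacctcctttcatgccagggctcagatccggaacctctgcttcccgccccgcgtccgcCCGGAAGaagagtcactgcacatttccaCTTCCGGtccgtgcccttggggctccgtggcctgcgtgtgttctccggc
Ndufa9: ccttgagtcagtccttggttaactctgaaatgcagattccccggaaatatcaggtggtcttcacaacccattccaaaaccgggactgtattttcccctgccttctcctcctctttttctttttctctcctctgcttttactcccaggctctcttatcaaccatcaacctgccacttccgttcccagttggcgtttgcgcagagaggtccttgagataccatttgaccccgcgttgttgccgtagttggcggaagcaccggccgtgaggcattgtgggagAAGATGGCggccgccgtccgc
Ndufs5: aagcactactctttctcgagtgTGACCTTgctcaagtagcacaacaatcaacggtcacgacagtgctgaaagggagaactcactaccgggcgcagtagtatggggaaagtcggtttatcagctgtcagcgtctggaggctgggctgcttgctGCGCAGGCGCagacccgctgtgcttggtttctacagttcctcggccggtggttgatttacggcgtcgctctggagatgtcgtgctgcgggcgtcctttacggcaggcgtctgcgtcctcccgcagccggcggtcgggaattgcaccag
The Ndufa11 window holds the nuclear respiratory factor motif, that of Ndufs3 the ETS motif once on each strand, that of Ndufa9 the YY1 motif after its transcript start and that of Ndufs5 the receptor motif followed by the nuclear respiratory factor motif. The nuclear respiratory factor motif stood in the windows of both Ndufa11, which was lower in pL2 mice, and Ndufs5. Ndufs5 was dim and its difference of 0.40 ± 0.23 was not called. Whether the motif went with the fall was not tested.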

How the data were processed

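RNA of 48 samples was measured on 1 Affymetrix array each. Per the submitters' processing notes, the authors made the deposited log2 signals by RMA in Affymetrix Expression Console, the version and genome build being not given in the sources used here. Of 34390 probe sets, the 23521 with 1 symbol were used (1814 had several and 9055 none), and the brightest stood for each gene. Genes above the array median on at least 3 arrays were tested. In R 4.3.3, limma 3.58.1 fitted 1 mean per group over the 48 arrays (32 residual degrees of freedom). Each of 24 comparisons had two-sided tests, and p-values were adjusted by Benjamini-Hochberg over all tested genes. The procedure was tested on simulated data. The members and gene lists were chosen with earlier results of these data known. Values per array are given by rule for the 3 subunits and 2 assembly factors with the smallest F-test p, for Ndufa4 and Ndufa4l2, and for up to 3 called members per comparison and direction; where none was called, the member of smallest p is named. Other members with values were chosen after these were seen. Arrays of a group were numbered in the order of deposit, and 0 columns of values were left unused. The alternatives tried are given in the closing section. The number of arrays limits the precision.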

Additional observations from a re-analysis of the deposited data

Results flagged for a closer look

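The effect of the transgene on Ndufs1, a core subunit of the matrix arm, differed between the facilities in the test of that difference, by 0.91 ± 0.20 on the log2 scale (limma, adjusted p = 0.0240). Ndufs1 was lower in pL2 mice at MRI on 3 of 3 arrays, by -0.95 ± 0.14, and differed by -0.03 ± 0.14 at Freising. The WT mean was 8.95 at MRI and 8.05 at Freising, and the pL2 means were 8.001 and 8.01. The call was lost when only the arrays compared were fitted, with the skeletal muscle markers or the title suffix as a covariate, and without any of 5 single arrays (adjusted p between 0.0532 and 0.0890). The mean of the skeletal muscle markers was 5.90 to 6.86 in WT mice at MRI and 3.58 to 5.36 in the other 3 groups. Most endothelial and fibroblast markers also fell further in pL2 mice at MRI than at Freising, and their part was not tested.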

How the results depend on the processing

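No paired analysis was possible because the labels give no replicate numbers that groups share. In the counts that follow, the value of the fit reported above stands in brackets, and the cause was not tested. Without a filter, 1 assembly factor (2) was called in the mean of facilities, and with the mean of all probe sets 1 subunit (0) in the transgene contrast on HFD. With the compared groups fitted alone, subunit counts were 2 (7) at MRI, 0 (1) for the facility difference, 0 (1) for FXR and 0 (6) for pL2_FXR against FXR, and assembly factor counts were 1 (0) at Freising, 1 (2) in the mean and 0 (1) for pL2_FXR against FXR. With cyclic loess, 1 assembly factor (0) was called at Freising, the mean difference over the subunits was 0.11 (0.01) for the facility difference and -0.062 (-0.17) for pL2_Lgr5_Notch1fl_fl. With the skeletal muscle covariate, assembly factor counts were 1 (0) at Freising and 1 (2) in the mean, and subunit counts were 0 (1) for the facility difference and 0 (1) for FXR. With the parietal covariate, subunit counts were 3 (7) at MRI, 1 (4) at Freising, 6 (12) in the mean, 0 (1) for FXR, 0 (6) for pL2_FXR against FXR, 1 (0) for Dclk against Lgr5 and 16 (26) in the F test. Assembly factor counts were then 0 (2) in the mean and 0 (1) for pL2_FXR against FXR, and mean differences over the subunits were -0.054 (-0.15) on HFD and -0.17 (-0.26) for pL2_FXR against FXR. With the title suffix, the facility difference called 0 subunits (1) and IL8 1 assembly factor (0). Without the 10 arrays of high hepatocyte or intestinal means, chosen after seeing the data, 4 subunits (7) were called at MRI, 1 assembly factor (0) at Freising and 2 (4) in the F test.

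Array quality weights, whose estimation stopped before it converged (weights 0.19 to 5.72), raised counts of all genes as well, to 6235 in the mean of facilities. For the other comparisons the raised count of all genes is not given here. Their member counts with these weights therefore stand without a background. Subunit counts were then 14 at MRI, 13 at Freising, 10 on HFD, 20 in the mean, 12 for the facility difference (5 higher and 7 lower), 1 for the diet in pL2, 1 for the diet in WT, 3 for diet by transgene, 6 for IL8, 3 for FXR, 2 for pL2_FXR against pL2, 3 for FXR by transgene and 3 for Dclk against Lgr5. In the reported fit of the facility difference, 1 subunit was called higher and 21 of 34 were negative. The Lgr5 lines had 8 (Notch1fl_fl), 15 (Notch2fl_fl) and 10 (Notch2IC_LacZ), and the Dclk lines 11, 11 and 8. Assembly factor counts were 3 at MRI, 1 at Freising, 1 for the facility difference, 1 for the diet in pL2, 1 for IL8, 1, 2 and 1 in the Lgr5 lines and 2, 1 and 2 in the Dclk lines.

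Leaving out each array in turn gave subunit counts of 22 to 27 in the F test, 9 to 13 in the mean of facilities, 3 to 7 at MRI, 1 to 3 at Freising, 0 to 2 on HFD, 0 to 2 for the facility difference, 0 to 1 for FXR, 1 to 7 for pL2_FXR against FXR, 0 to 1 for pL2_Lgr5_Notch1fl_fl, 0 to 9 for pL2_Lgr5_Notch2IC_LacZ and 0 to 2 for Dclk against Lgr5. Assembly factor counts were 3 to 4 in the F test, 0 to 2 in the mean of facilities, 0 to 1 at MRI, 0 to 1 for pL2_FXR against FXR and 0 to 1 for pL2_Lgr5_Notch2IC_LacZ. The mean difference over the subunits stayed within 1 SD of the reported value in all 186 of these fits and in all but 4 of the others. Shares of all tested genes called are not given here for the fits that left out an array. Ndufs5 and Ndufaf2 were dim and were left out by the stricter filter.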
